A study of Mus musculus with 32 samples.

Results

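Mesenteric arteries taken after 14 days of angiotensin II (Ang II) infusion were set against those taken after 7 days of the same infusion, to describe how the arterial miRNA profile stood at the later time. The comparison used the 16 infused libraries, 8 per time, of the 32 libraries in the series, chosen by their treatment label. All mice were male C57BL/6J wild type, aged 10 to 12 weeks. The 14-day and 7-day Ang II mice received 1000 ng/kg/min under the skin from osmotic pumps, and the 14-day and 7-day sham mice, 8 libraries each, had sham surgery. The labels give 10 mice per group, each library comes from a separately numbered mouse, and the arteries were dissected free of fat and veins.

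A miRNA is cut from a hairpin precursor and guides an Argonaute protein to mRNAs that pair with its seed, the bases from position 2 to 8, which lowers their output. Ang II is a peptide hormone that constricts small arteries, raises blood pressure and, with continued exposure, thickens and stiffens the vessel wall. Among arterial miRNAs, the miR-143/miR-145 pair is known for contractile smooth muscle, miR-126 for endothelium, and miR-21 for fibrosis.

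No miRNA differed between 14-day and 7-day Ang II arteries at an adjusted p under 0.05 (limma-trend, 0 of 543 tested, 0.0%). At an unadjusted p under 0.05 there were 40 miRNAs (7.37%), 20 with a mean above the 7-day mean (3.68%) and 20 below it (3.68%). The smallest adjusted p was 0.576. The edgeR quasi-likelihood test, DESeq2 and limma-voom with library quality weights also called 0, with 42, 45 and 123 miRNAs at an unadjusted p under 0.05. The lowest unadjusted p values belonged to miR-29a-5p, miR-34a-5p, miR-140-3p and miR-193b-3p, with 14-day means above the 7-day means, and to miR-375-3p and miR-96-5p, with 14-day means below them.

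The mature sequences of miRNAs on which the values below turn are shown first. They are leading miRNAs in either direction, some of their seed or cluster relatives, and miR-29a-5p, miR-382-5p and miR-431-5p. Where 2 have the same seed, as miR-193a-3p and miR-193b-3p or miR-141-3p and miR-200a-3p, their possible targets largely overlap, while miR-96-5p and miR-182-5p differ within the seed. The sequences were read from RefSeq for GRCm38.p6, where 34 of the 46 miRNAs looked up had an entry. Capitals mark the seed.
miR-29a-5p: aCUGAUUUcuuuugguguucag
miR-34a-5p: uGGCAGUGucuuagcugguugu
miR-140-3p: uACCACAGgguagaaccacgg
miR-193b-3p: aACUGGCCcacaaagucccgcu
miR-193a-3p: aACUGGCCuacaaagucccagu
miR-199a-5p: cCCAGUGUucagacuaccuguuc
miR-155-5p: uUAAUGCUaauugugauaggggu
miR-301a-3p: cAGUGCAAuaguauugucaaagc
miR-382-5p: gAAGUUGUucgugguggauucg
miR-431-5p: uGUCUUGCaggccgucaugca
miR-96-5p: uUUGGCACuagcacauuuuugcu
miR-182-5p: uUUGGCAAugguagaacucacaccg
miR-141-3p: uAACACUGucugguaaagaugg
miR-200a-3p: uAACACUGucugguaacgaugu
miR-429-3p: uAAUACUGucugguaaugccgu
miR-148a-3p: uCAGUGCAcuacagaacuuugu
miR-92a-3p: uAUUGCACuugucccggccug

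After merging copies, the depth was 11.4 to 18.8 M (mega) reads per library, on average 16.2 ± 2.4 M with 14 days of Ang II and 15.3 ± 1.93 M with 7 days (SD, n = 8 each, exact two-sided permutation p = 0.377). Values are normalised RPM, reads per M after the authors' scaling, whose column totals ran from 0.727 to 1.52 M in 14-day and from 0.907 to 1.60 M in 7-day Ang II libraries. All 32 libraries were sorted into 2 classes, A and B, by a cut on the leading axis of variation inside the groups (35.6% of it). The cut gave the least spread within the classes. Each group's mean was removed first, so a library's class is relative to its own group. Class A took in 6 of the 8 14-day and 3 of the 8 7-day Ang II libraries. On the axis, class A ran from 1.03 to 6.49 at 14 days and from 8.91 to 12.6 at 7 days of Ang II. Class B ran from -12.3 to -11.6 and from -9.40 to -4.81. Values within a class or with class as a term thus compare unlike libraries. They show how far a value moves and are not corrections. The mouse numbers also split by day. Numbers that begin with 26 or 30 held 5 and 2 of the 14-day Ang II libraries and none of the 7-day Ang II ones, while 27 held 5 of the 7-day and none of the 14-day Ang II ones. Only 28 had both, with 1 and 3 libraries, so day and mouse-number series largely cannot be told apart. Values below with the series as a term lean on these libraries and on sham libraries that span series. They are not corrected estimates of the difference between days. The labels do not say what these numbers stand for.

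The arteries carried the miRNAs of their tissue. The share of reads held by miR-143-3p averaged 45.0% ± 4.17 in 14-day and 48.2% ± 4.24 in 7-day Ang II libraries (SD, n = 8 each, exact two-sided permutation p = 0.158). Of 12 library measures compared, the share of miR-26a-5p was the 1 with an unadjusted p under 0.05, at 6.83% ± 1.12 in 14-day and 5.46% ± 1.18 in 7-day Ang II libraries (SD, n = 8 each, exact permutation p = 0.0317, adjusted over the 12 measures 0.380). Marker miRNAs of other tissues were present too, and are given below beside the results they move with. In whole tissue, fewer cells of a type and less RNA per cell cannot be told apart.

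The 20 leading miRNAs were the 10 with the smallest p in each direction at a mean of at least 10 RPM. Their log2 fold changes, 14-day over 7-day Ang II on the log2(RPM + 1) scale, lay between 0.24 and 0.76 in size, with unadjusted p from 0.00335 to 0.0382 and adjusted p from 0.576 to 0.663 (limma). Their selection rested on this contrast, so these values describe and do not test. In no miRNA of the 543 tested were the 2 groups free of overlap (0.0%). All 8 14-day libraries lay on one side of the 7-day median for 11 of the 20, 3 above and 8 below, and for 37 of the 543 (6.81%).

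Among those with the higher 14-day mean, miR-34a-5p, which p53 induces and which is known from senescent vessel cells, had 9.83, 12.1 and 14.7 RPM as its lowest, median and highest value in 14-day Ang II arteries, against 5.75, 9.88 and 11.4 RPM in 7-day Ang II arteries. In 6 of the 8 14-day libraries it lay above every 7-day library, and 1 lay below the 7-day median. The log2 fold change was 0.40 ± 0.13 (SE, unadjusted p = 0.00335, limma adjusted p = 0.576), a 1.32-fold level. The hairpin lies at chr4:150068454-150068555 on the plus strand of GRCm38.p6, outside annotated genes.

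miR-140-3p, best known from cartilage, lies at chr8:107551244-107551313 on the plus strand within an annotated exon of Wwp2. It had 3111, 4797 and 6284 RPM as lowest, median and highest value in 14-day Ang II arteries, against 3298, 3583 and 4232 RPM in 7-day Ang II arteries. In 6 of 8 14-day libraries it exceeded all 7-day libraries, and in 1 it was under all of them, with a log2 fold change of 0.33 ± 0.11 (SE, unadjusted p = 0.00483, limma adjusted p = 0.576). The other arm of the hairpin, miR-140-5p, had 69.2 to 138 RPM in 14-day and 56.2 to 88.5 RPM in 7-day Ang II arteries, and a log2 fold change of 0.31, so both arms leaned the same way.

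miR-193b-3p, known from adipose and muscle differentiation, had 42.7, 64.8 and 74.8 RPM as lowest, median and highest value in 14-day Ang II arteries, against 38.0, 49.8 and 63.8 RPM in 7-day Ang II arteries. The ranges overlapped, with 4 of the 8 14-day libraries above every 7-day library, and the log2 fold change was 0.33 ± 0.11 (SE, unadjusted p = 0.00512, limma adjusted p = 0.576). miR-193a-3p, which has the same seed and comes from another chromosome, averaged 9.82 ± 3.91 RPM in 14-day and 7.25 ± 1.69 RPM in 7-day Ang II arteries (SD, n = 8 each), with a log2 fold change of 0.33 (unadjusted p = 0.0852, limma).

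miR-155-5p, made from the Mir155hg transcript of activated leukocytes and known to target the Ang II type 1 receptor in human cells, had 19.98, 27.9 and 51.5 RPM as lowest, median and highest value in 14-day Ang II arteries, against 17.1, 21.04 and 29.7 RPM in 7-day Ang II arteries. The groups overlapped widely, with only 2 of the 14-day libraries above every 7-day library. This gave a log2 fold change of 0.41 ± 0.16 (SE, unadjusted p = 0.0158, limma adjusted p = 0.586). Class A libraries alone gave 0.10 and class B libraries alone 0.55. Among the 9 tested leukocyte markers, 5 had a log2 fold change above 0 and the median was 0.01, against 289 of 543 (53.2%) and a median of 0.01 over all miRNAs tested. Their summed level ran from 889 to 2104 RPM in 14-day and from 1048 to 1810 RPM in 7-day Ang II arteries, and the part of leukocytes in the miR-155-5p value was not tested.

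miR-199a-5p, which is made from Dnm3os and a second hairpin in Dnm2 and is known from fibroblasts, lay between 662 and 1181 RPM with a median of 793 in 14-day Ang II arteries, against 524 to 929 RPM with a median of 645 in 7-day Ang II arteries. All 8 14-day libraries lay above the 7-day median, and 1 lay above every 7-day library. The log2 fold change was 0.28 ± 0.11 (SE, unadjusted p = 0.0139, limma adjusted p = 0.586), with 0.06 within class A and 0.46 within class B. miR-301a-3p, of the miR-130 seed family, and let-7j also had all 8 14-day libraries above the 7-day median, with log2 fold changes of 0.25 and 0.24. For miR-301a-3p the value was -0.03 within class A.

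The rest of the higher set were miR-337-5p (log2 fold change 0.40), of the Dlk1-Dio3 cluster, and miR-145a-5p (0.34), the leading strand of the smooth muscle hairpin. miR-145a-5p had 1334, 2582 and 3378 RPM as lowest, median and highest value in 14-day Ang II arteries, against 1478, 1825 and 2085 RPM in 7-day Ang II arteries. The 14-day libraries were split, with 5 above every 7-day library and 2 below every one. Within class B the log2 fold change was -0.06.

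**Figure D1:**
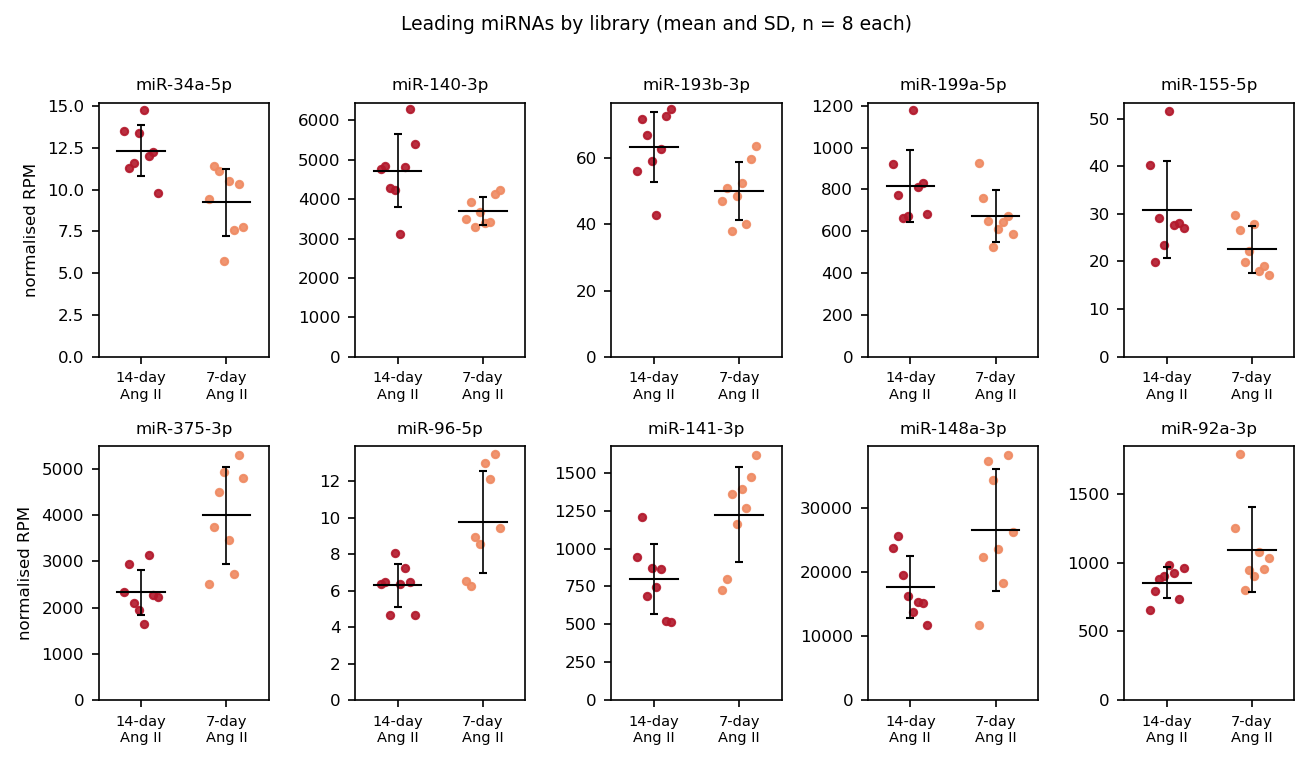
Normalised RPM on linear axes that start at 0, for 5 leading miRNAs with the higher 14-day mean (upper panels) and 5 with the lower 14-day mean (lower panels). Each point is 1 library, and bars give the mean and SD of 8 libraries. The 2 groups overlap in every panel; miR-375-3p runs from 1645 to 3128 RPM at 14 days and from 2518 to 5307 RPM at 7 days.

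Among those with the lower 14-day mean, miR-375-3p had the largest log2 fold change in size of the 20. This miRNA is known from pancreatic islets and other secretory epithelium. It had 1645, 2253 and 3128 RPM as lowest, median and highest value in 14-day Ang II arteries, against 2518, 4112 and 5307 RPM in 7-day Ang II arteries. All 8 14-day libraries lay below the 7-day median and 6 lay below every 7-day library. The log2 fold change was -0.76 ± 0.26 (SE, unadjusted p = 0.00562, limma adjusted p = 0.576), a 0.591-fold level. With the library class as a term it was -0.51, and with the mouse-number series as a term it was 0.07.

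miR-148a-3p, abundant in secretory and immune cells, had 11640, 15790 and 25550 RPM as lowest, median and highest value in 14-day Ang II arteries, against 11660, 24820 and 38230 RPM in 7-day Ang II arteries. The ranges began at nearly the same level, and 7 of 8 14-day libraries lay below the 7-day median. On the log2 scale the fold change was -0.54 ± 0.24 (SE, unadjusted p = 0.0318, limma adjusted p = 0.639), with -0.25 once class was a term and -0.06 once the mouse-number series was.

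Both were placed on the list named pancreatic acinar, which also holds miR-216 and miR-217, although neither is particular to acinar cells. Of its 9 tested members, 8 had a log2 fold change below 0, with a median of -0.39, against 289 of 543 above 0 (53.2%) over all miRNAs tested. The 2 with an unadjusted p under 0.05, miR-375-3p and miR-148a-3p, are leading miRNAs chosen by that p, and 20 of the 543 (3.68%) had such a p with the lower 14-day mean. miR-216a-5p, a defining acinar miRNA, averaged 71.6 ± 20.6 RPM in 14-day and 94.9 ± 29.4 RPM in 7-day Ang II arteries (SD, n = 8 each, log2 fold change -0.39, unadjusted p = 0.163, limma). Of the other miR-216 and miR-217 arms, miR-216a-3p and miR-216b-3p had -0.40, miR-216b-5p -0.13, miR-217-5p -0.16 and miR-217-3p 0.10. The summed level of the list ran from 14040 to 28850 RPM in 14-day and from 14360 to 43980 RPM in 7-day Ang II arteries. Most of it was miR-148a-3p, with means of 17610 RPM at 14 days and 26470 RPM at 7 days. Next came miR-375-3p, with means of 2328 and 3997 RPM, so the sum says little about miR-216 and miR-217. The mean sums were 20200 and 30780 RPM. The list median was -0.06 with class as a term and 0.22 with the mouse-number series as a term. In sham arteries 6 of the 9 members were below 0 on the same contrast, with a median of -0.08.

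The miR-200 family marks epithelium, where its members hold down the ZEB transcription factors. miR-141-3p had 515, 806 and 1211 RPM as lowest, median and highest value in 14-day Ang II arteries, against 727, 1314 and 1620 RPM in 7-day Ang II arteries. All 8 14-day libraries lay below the 7-day median and 3 below every 7-day library, with a log2 fold change of -0.63 ± 0.27 (SE, unadjusted p = 0.0263, limma adjusted p = 0.596). miR-200a-3p, with the same seed as the sequences above show, had 118 to 199.8 RPM in 14-day and 134 to 362 RPM in 7-day Ang II arteries, with a log2 fold change of -0.53 (unadjusted p = 0.0526, limma). miR-429-3p and miR-200b-3p, which share the other seed of the family, had -0.65 and -0.50 (unadjusted p = 0.0486 and 0.100, limma). The hairpins of miR-200a and miR-429 lie together on the minus strand at chr4:156054896-156054985 and chr4:156053905-156053987, in an intron of Ttll10, so these members share a source.

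Of the 13 tested epithelial members, 12 had a log2 fold change below 0, with a median of -0.39, against 0.01 over all 543 miRNAs. In sham arteries 11 of the 13 were above 0, with a median of 0.18. In Ang II arteries the class A libraries alone gave a median of -0.18 and the class B libraries alone -0.53. It was -0.24 with the mouse-number series as a term, where miR-141-3p itself was at -0.03. The summed level ran from 2169 to 4077 RPM in 14-day and from 2537 to 11780 RPM in 7-day Ang II arteries, where replicate 8 gave the upper limit and the other 7 libraries reached 5528 RPM. The largest single part came from miR-192-5p, an intestinal and renal epithelial miRNA, with 934 to 2224 RPM in 14-day and 981 to 8596 RPM in 7-day Ang II arteries. The part of epithelial or pancreatic tissue in the dissected samples in these values was not tested.

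**Figure D2:**
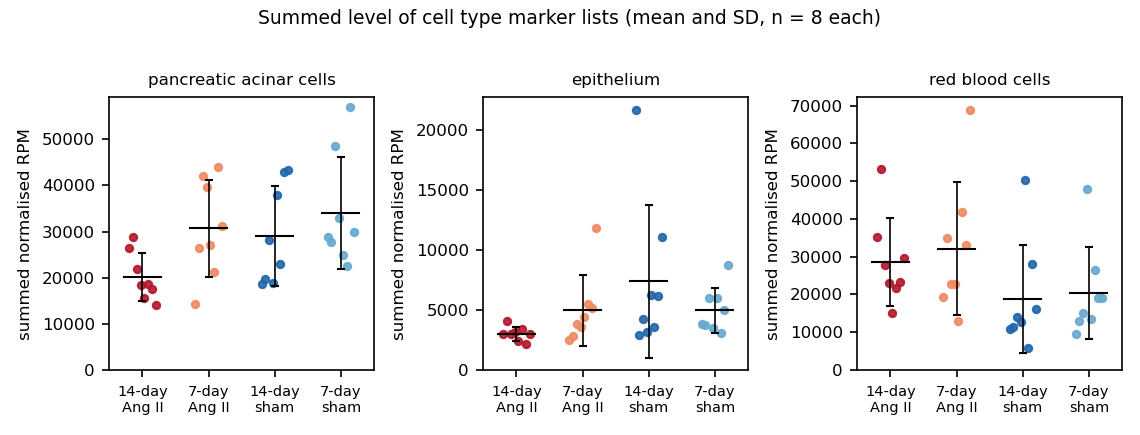
Summed normalised RPM of the pancreatic acinar, epithelial and red blood cell marker lists in each library of the 4 groups, on linear axes that start at 0, with the mean and SD of 8 libraries. Most of the pancreatic acinar sum is miR-148a-3p, followed by miR-375-3p, and little of it is miR-216 or miR-217. The epithelial sum lies between 2169 and 4077 RPM in 14-day Ang II arteries and reaches 11780 RPM in 1 library of 7-day Ang II arteries (5528 RPM in the others), with the ranges overlapping in all 3 panels.

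miR-96-5p, from a cluster with miR-183 and miR-182 that is known from sensory and epithelial cells, had 4.66, 6.44 and 8.08 RPM as lowest, median and highest value in 14-day Ang II arteries, against 6.25, 9.18 and 13.5 RPM in 7-day Ang II arteries. None of the 14-day libraries reached the 7-day median, and 2 lay below every 7-day library. The log2 fold change was -0.54 ± 0.18 (SE, unadjusted p = 0.00637, limma adjusted p = 0.576), and it was -0.30 with the mouse-number series as a term. The 3 hairpins lie within a few kilobases on the minus strand of chromosome 6, with miR-96 at chr6:30169446-30169551, outside annotated genes. Its neighbours had log2 fold changes of -0.61 (miR-182-5p, unadjusted p = 0.0672) and -0.80 (miR-183-5p, unadjusted p = 0.198, limma). For miR-182-5p the value was -0.23 with class as a term, 0.08 within class A and -0.02 with the series term. miR-183-5p was split within both groups, from 38.4 to 436 RPM in 14-day and from 48.6 to 404 RPM in 7-day Ang II arteries, and its value was 0.07 with the library class as a term and -0.80 without it.

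miR-92a-3p, a miR-17 cluster member known to restrain vessel growth in endothelium, had 658, 891 and 978 RPM as lowest, median and highest value in 14-day Ang II arteries, against 798, 993 and 1789 RPM in 7-day Ang II arteries. Every 14-day library lay below the 7-day median, and 3 lay below every 7-day library, which gave a log2 fold change of -0.33 ± 0.13 (SE, unadjusted p = 0.0140, limma adjusted p = 0.586), and it was -0.10 when only library totals were used for scaling. Of the 14 tested members of the miR-17 clusters, miR-92a-3p among them, 11 had a log2 fold change above 0, with a median of 0.13.

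The remaining leading miRNAs with the lower 14-day mean were miR-455-5p (log2 fold change -0.30), from an intron of Col27a1, miR-802-3p (-0.47), known from liver and pancreas, and 3 entries with neither a location nor a sequence in the files, Novel_y_5 (-0.61), Novel_y_30 (-0.67) and Novel_y_2 (-0.31). For miR-455-5p the 14-day libraries ran from 11.7 to 18.2 RPM and the 7-day libraries from 16.5 to 23.9 RPM. Of all 543 miRNAs, 9 had a point estimate beyond 2-fold, of which 8 were entries named like Novel_y_2 and the other was miR-6240. Among the leading miRNAs, 7 hairpins had both arms tested, and 5 of these had both arms on the same side of 0, against 59 of 114 (51.75%) over all such hairpins.

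The sham groups were compared between the same days. Here, too, no miRNA differed at an adjusted p under 0.05 (limma, 0 of 543, 0.0%), with 18 at an unadjusted p under 0.05 (3.31%), 10 above 0 (1.84%) and 8 below (1.47%), and 275 of 543 above 0 (50.6%). The edgeR test and DESeq2 each called 1, miR-145a-3p. Of the 20 leading miRNAs, 14 had a sham log2 fold change of the same sign and none had an unadjusted sham p under 0.05. As the 20 were chosen by the Ang II p alone, this does not test a difference between the contrasts. The difference between the Ang II and the sham contrast was tested as an interaction and called 0 of 543 (0.0%, limma), with 25 at an unadjusted p under 0.05 (4.6%), 20 above 0 (3.68%) and 5 below (0.921%), 285 above 0 in all (52.5%), and a smallest adjusted p of 0.804. edgeR and DESeq2 called 0 for this interaction as well. The interaction contains the Ang II contrast by which the 20 were chosen. Of these 20, 3 had an unadjusted interaction p under 0.05 (miR-34a-5p, miR-337-5p and miR-455-5p, limma), which describes and does not test. A difference between days in infused arteries is thus not shown to differ from that in sham arteries.

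**Figure D3:**
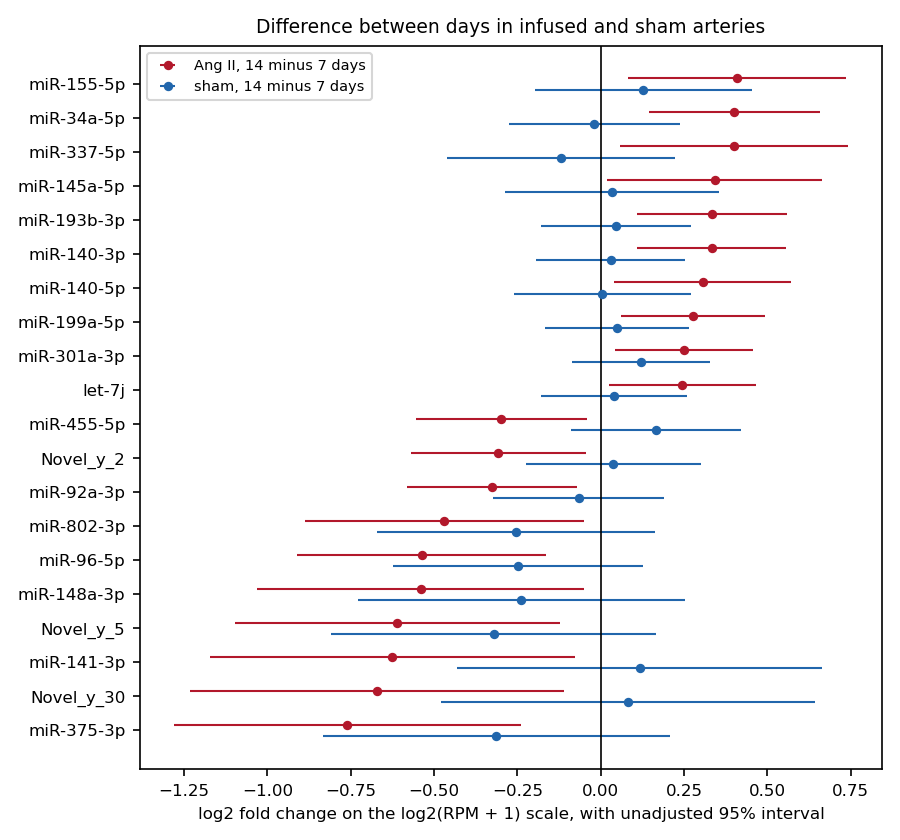
Log2 fold change of the 20 leading miRNAs between 14 and 7 days in Ang II arteries (upper point of each pair) and in sham arteries (lower point), with unadjusted 95% intervals from limma. The Ang II intervals exclude 0 because the miRNAs were chosen by their p. The sham points lie nearer to 0, which a choice by the Ang II p favours, so this is no test.

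Below the level of 10 RPM the miRNA with the smallest p of all was miR-29a-5p, the minor strand of the hairpin whose other strand is known to hold down collagen genes. It had 1.86, 2.09 and 3.23 RPM as lowest, median and highest value in 14-day Ang II arteries, against 0.739, 1.36 and 2.16 RPM in 7-day Ang II arteries. In all 8 14-day libraries it lay above the 7-day median, and 4 lay above every 7-day library. Its log2 fold change was 0.42 ± 0.12 (SE, unadjusted p = 0.00130, limma adjusted p = 0.576), on a median of 37.5 reads per 14-day and 20 reads per 7-day Ang II library. In sham arteries it averaged 1.98 ± 0.270 RPM at 14 days and 2.12 ± 0.421 RPM at 7 days (SD, n = 8 each). The 5 tested members of the miR-29 family had a median of 0.02.

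The Dlk1-Dio3 cluster, the imprinted region of chromosome 12 that carries a large group of miRNA genes read as long transcripts, had a small lean above 0. Of its 57 tested members, 46 had a log2 fold change above 0, with a median of 0.15, against 289 of 543 (53.2%) and 0.01 over all miRNAs tested. Of the 57, 4 had an unadjusted p under 0.05, against 40 of 543 (7.37%) over all miRNAs tested, a share near that background. All 4 had the higher 14-day mean, against 20 of 543 (3.68%), and were miR-382-5p, miR-382-3p, miR-337-5p and miR-376c-3p. miR-382-5p, from an exon of the Mirg transcript, had 3.45, 6.01 and 7.35 RPM as lowest, median and highest value in 14-day Ang II arteries, against 2.86, 3.90 and 4.50 RPM in 7-day Ang II arteries. In 5 of 8 14-day libraries it lay above every 7-day library, and the other 3 lay below the 7-day median.

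In sham arteries 13 of the 57 cluster members were above 0, with a median of -0.10, and the median of the interaction was 0.26. The members share transcripts and are not independent. Class A libraries alone gave a median of 0.06 and class B libraries alone 0.27. The summed level of the cluster ran from 7920 to 17520 RPM in 14-day and from 7352 to 14410 RPM in 7-day Ang II arteries, so the groups overlapped. Its median was 10420 RPM at 14 days and 11080 RPM at 7 days, and its mean 11080 and 10830 RPM. The lean of the members was thus not seen in the median of the sum. The SD over 8 libraries, taken on the log2 scale, was larger at 14 days in 46 of the 57 members, with a median of 0.44 in 14-day and 0.32 in 7-day Ang II arteries. Over all 543 miRNAs it was larger at 14 days in 281, with medians of 0.38 in 14-day and 0.35 in 7-day Ang II arteries.

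miR-431-5p, a member of the cluster encoded opposite to Rtl1, had 19.7, 28.5 and 44.4 RPM as lowest, median and highest value in 14-day Ang II arteries, against 15.5, 23.5 and 33.2 RPM in 7-day Ang II arteries. The 2 highest 14-day libraries lay above every 7-day library and the others overlapped. The log2 fold change was 0.29 ± 0.15 (SE, unadjusted p = 0.0728, limma adjusted p = 0.669), with -0.02 within class A. Sham arteries averaged 16.2 ± 2.65 RPM at 14 days and 17.4 ± 1.23 RPM at 7 days (SD, n = 8 each).

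**Figure D4:**
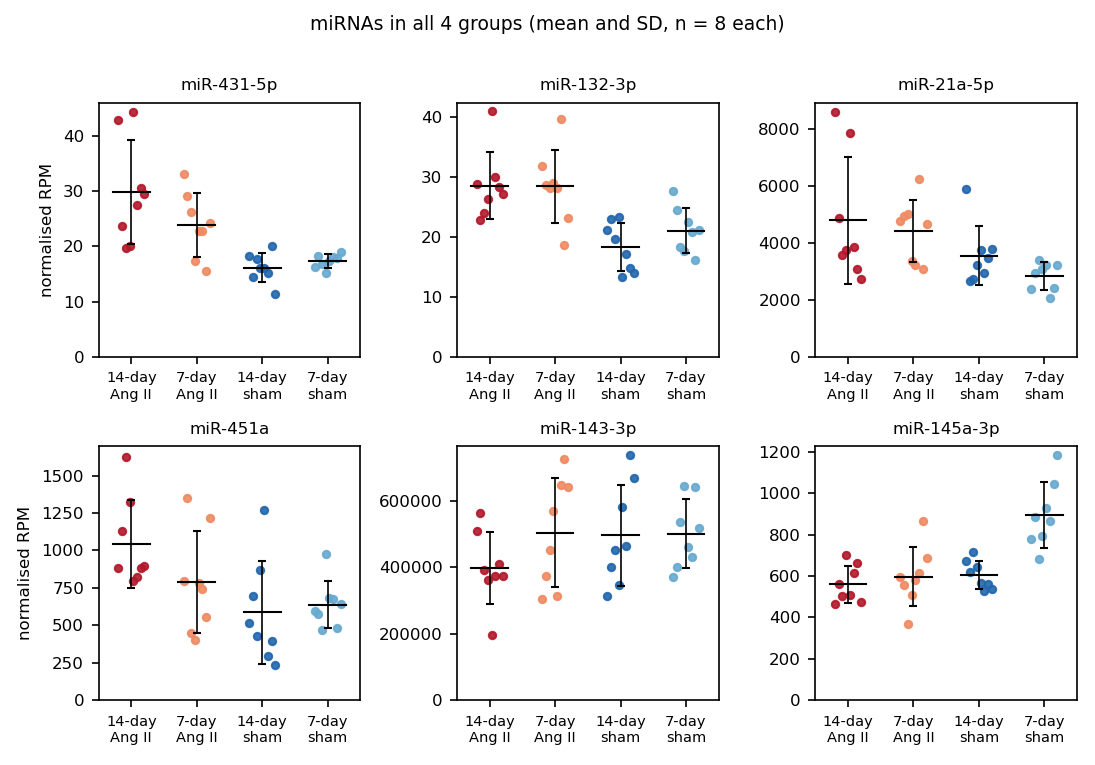
Normalised RPM of 6 miRNAs in each library of the 4 groups, on linear axes that start at 0, with the mean and SD of 8 libraries. The levels of miR-431-5p, miR-132-3p and miR-21a-5p overlap between 14-day and 7-day Ang II arteries, and miR-145a-3p averages 895.5 RPM in 7-day sham arteries against 560 to 604 RPM in the other groups.

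miR-132-3p, which CREB induces and which is known to respond to Ang II, averaged 28.5 ± 5.55 RPM in 14-day and 28.4 ± 6.10 RPM in 7-day Ang II arteries (SD, n = 8 each). Its log2 fold change was 0.01, with an unadjusted 95% interval from -0.27 to 0.30. miR-21a-5p, encoded in Vmp1 and known from fibrosis, had 2740, 3799 and 8573 RPM as lowest, median and highest value in 14-day Ang II arteries, against 3089, 4719 and 6240 RPM in 7-day Ang II arteries. In 2 14-day libraries it lay above every 7-day library and in 2 below every one. Its log2 fold change of 0.04 had an interval from -0.38 to 0.45, and was -0.08 without 14-day Ang II replicate 5. The 7 tested members of the fibrosis and remodelling list had a median of 0.17, with 6 above 0, among them miR-214-3p (0.29), a neighbour of miR-199a in Dnm3os. Class A libraries alone gave a median of -0.05 and class B libraries alone 0.32, and over all miRNAs 289 of 543 were above 0 (53.2%). The sham contrast also had 6 of the 7 list members above 0, with a median of 0.15. The median of the interaction was 0.03, so the lean was not particular to infused arteries.

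The smooth muscle list was split. miR-143-3p averaged 397300 ± 109500 RPM in 14-day and 503600 ± 164500 RPM in 7-day Ang II arteries (SD, n = 8 each), with a log2 fold change of -0.33 (unadjusted p = 0.134, limma), while miR-145a-5p from the same transcript stood at 0.34. With class as a term the miR-143-3p value was -0.07. The minor strand miR-145a-3p averaged 560 ± 89.8 RPM in 14-day and 596 ± 142 RPM in 7-day Ang II arteries (SD, n = 8 each, log2 fold change -0.07, interval from -0.33 to 0.19). In sham arteries it averaged 604 ± 67.6 RPM at 14 days and 895.5 ± 159 RPM at 7 days (SD, n = 8 each), with a log2 fold change of -0.56 ± 0.13 (SE) and a limma adjusted p of 0.0817, the smallest of that contrast. The endothelial miRNAs miR-126-3p and miR-126-5p had log2 fold changes of -0.07 and -0.34 (unadjusted p = 0.516 and 0.0945, limma).

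The red blood cell list had 4 of its 5 tested members above 0, with a median of 0.25, and none above 0 in sham arteries, where the median was -0.29. In Ang II arteries the median was -0.18 in class A libraries alone, 0.33 in class B libraries alone and 0.02 with the mouse-number series as a term. miR-451a, the erythroid miRNA that is matured by Argonaute 2 rather than Dicer, had 793, 890 and 1627 RPM as lowest, median and highest value in 14-day Ang II arteries, against 405, 763 and 1351 RPM in 7-day Ang II arteries. All 8 14-day libraries lay above the 7-day median, with a log2 fold change of 0.48 ± 0.27 (SE, unadjusted p = 0.0903, limma adjusted p = 0.669), and -0.13 with the mouse-number series as a term. The joint entry miR-486-5p/miR-3107-5p, whose 2 names have equal reads, made up most of the list's sum and had a log2 fold change of -0.11. The sum ran from 14980 to 53140 RPM in 14-day and from 13020 to 68920 RPM in 7-day Ang II arteries. The amount of blood in the samples was not tested.

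**Figure D5:**
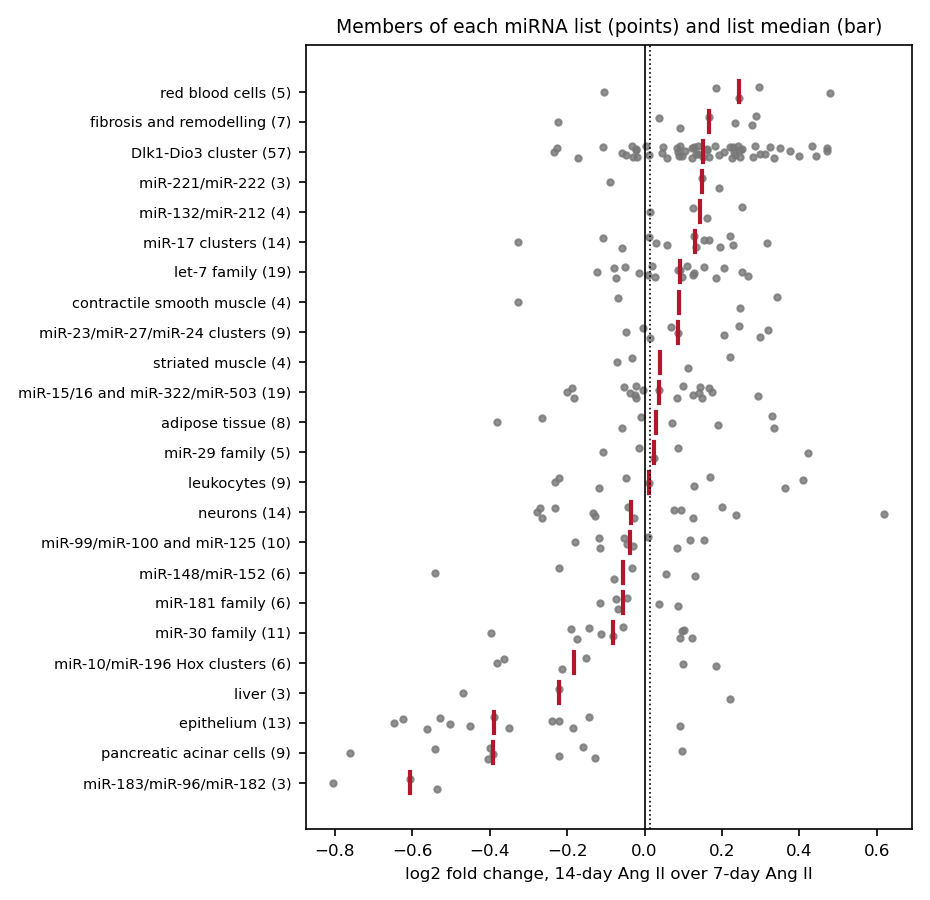
Log2 fold change, 14-day over 7-day Ang II, of each tested member (points) of the miRNA lists with at least 3 tested members, with the list median as a bar and the number tested in brackets. The dotted line is the median of all 543 miRNAs at 0.01; list medians run from -0.61 (miR-183/miR-96/miR-182) to 0.25 (red blood cells, -0.18 in class A libraries alone).

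The let-7 family list, which is known to limit proliferation and does not hold let-7j here, had 14 of 19 tested members above 0 and a median of 0.09. The miR-15/16 and miR-322/miR-503 list had 10 of 19 above 0 and a median of 0.04. The miR-30 family had 4 of 11 above 0 and a median of -0.08, against 10 of 11 above 0 and a median of 0.13 in sham arteries. The clusters of miR-23, miR-27 and miR-24 had 7 of 9 above 0 and a median of 0.09, and the miR-181 family had 2 of 6 and -0.06. None of these members had an unadjusted p under 0.05 except miR-24-1-5p (log2 fold change 0.32, unadjusted p = 0.0432, limma). Medians farther from 0 belonged to the Hox cluster miRNAs miR-10 and miR-196 (-0.18, 2 of 6 above 0), to miR-221 and miR-222 (0.15, 2 of 3), to miR-132 and miR-212 (0.14, 4 of 4) and to the liver list (-0.22, 1 of 3). With class as a term these medians were, in the same order, 0.11, -0.06, 0.05 and -0.24. With the mouse-number series as a term they were 0.05, 0.002, -0.07 and -0.03.

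The unadjusted intervals give the range of difference that the values of each miRNA allow. They are not the limit for a call, which needed an adjusted p under 0.05. The median SE of the log2 fold change was 0.18 over all 543 miRNAs and 0.17 over the 280 with a mean of at least 10 RPM. For 463 of the 543 (85.3%) the unadjusted 95% interval lay within 2-fold in both directions, and for 303 (55.8%) within 1.5-fold. These folds are on the log2(RPM + 1) scale, which understates those of rare miRNAs. Scaling by library totals alone moved the median of all miRNAs from 0.01 to 0.21 on the log2 scale. On that scaling the miRNAs with an unadjusted p under 0.05 were 37 with the higher 14-day mean and 5 with the lower, against 20 and 20 with the authors' scaling, and 0 were called.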

How the data were processed

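Total RNA of mesenteric arteries was made into TruSeq small RNA libraries from 1 µg each, per the labels' protocols. Per the submitters' processing notes the tools were bcl2fastq 1.8.4, FastQC, STAR 2.3.1, R 3.2.3 and edgeR 3.6.8 on mm10. The annotation and the handling of reads with several places are not given in the sources used here. The table deposited by the authors gives 1 normalised signal per miRNA and library, without a stated unit. All values (100.0%) were whole multiples of the library's step within 0.001 read, so whole reads were recovered and the signal is called RPM. Of rows with 1 name the highest by mean was used, rows at 0 throughout were dropped and rows with equal reads were merged, which left 1030 rows, and the 543 with a mean of at least 1 RPM were tested.

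limma-trend (limma 3.58.1, R 4.3.3) was fitted to log2(RPM + 1) with 1 model for the 4 groups of 8 and no covariate. Calls needed a two-sided Benjamini-Hochberg adjusted p under 0.05. Fold changes on this scale understate those of rare miRNAs. Library measures were compared by exact two-sided permutation tests. edgeR 4.0.16 and DESeq2 1.42.0 on the recovered reads were alternatives, along with other scalings, filters, pseudocounts, covariates and each library left out in turn. Leaving out the entries named like Novel_y_2 was added after the data were seen. The fits were checked on simulated data.

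The miRNAs named were the 10 with the smallest p in each direction at a mean of at least 10 RPM, the 5 with the smallest p for the sham contrast and for the interaction, up to 3 per list by smallest p, and, in any case, miR-155-5p, miR-132-3p, miR-126-3p, miR-145a-5p, miR-143-3p, miR-21a-5p and miR-431-5p. Not every list member so chosen is printed. The members and lists were chosen with earlier results of these data known. In Ang II libraries 3 reads were worth 0.0888 to 0.277 RPM, a limit that covers counting error only.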

Additional observations from a re-analysis of the deposited data

Results flagged for a closer look

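For the 46 miRNAs looked up for a sequence, 92 groups of 8 Ang II libraries were examined for a single library far from the rest. Some others with values here, such as miR-409-5p, were not examined. Of the 92 groups, 5 had such a library, where chance gives about 1 in 20. All 5 were 14-day Ang II replicate 5, the library with the lowest column total (0.727 M) and the most rows with a read (872). It had 194200 RPM of miR-143-3p, with 362300 to 563000 RPM in the other 14-day Ang II libraries, and 214 RPM of Novel_y_2, with 342 to 438 RPM in the others. It had 40.9 RPM of miR-132-3p (22.9 to 29.95 in the others), 8.14 RPM of miR-376c-3p (2.28 to 4.31 in the others) and 160 RPM of miR-434-5p (61.8 to 85.6 in the others). Without it the log2 fold changes were -0.19 for miR-143-3p, -0.20 for Novel_y_2, -0.06 for miR-132-3p, 0.33 for miR-376c-3p and 0.21 for miR-434-5p, and none had an unadjusted p under 0.05 (limma). The smallest adjusted p of all miRNAs tested was then 0.0953 (miR-140-3p, limma).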

How the results depend on the processing

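No miRNA was called between 14-day and 7-day Ang II arteries under the other scalings, filters, pseudocounts and tests, within either library class, with class as a term, without the entries named like Novel_z_8 (chosen after the data were seen), or in any of the 16 fits that left out a library (0 to 0). The smallest adjusted p moved, from 0.576 in the main limma fit to 0.120 with limma-voom and 0.199 with class as a term. In the limma fits that left out a library it ran from 0.0953 (miR-140-3p, without 14-day Ang II replicate 5) to 0.804 (miR-29a-5p, without 7-day Ang II replicate 4). With the mouse-number series as a term, 1 was called, the entry Novel_z_8 (log2 fold change -2.85, limma adjusted p = 0.0232). Without that term it was -0.13 (unadjusted p = 0.815), on 25.5 ± 2.73 RPM in 14-day and 28.1 ± 3.48 RPM in 7-day Ang II arteries (SD, n = 8 each). The count at an unadjusted p under 0.05 was 40, but 66 of 1030 with no filter, 25 of the 280 that reached 10 RPM on average, 123 with limma-voom, 16 with the series term, 59 within class B, 62 without 7-day Ang II replicate 1 and 25 without 14-day Ang II replicate 7. The sham count was 1 above an average of 10 RPM and with edgeR, DESeq2 and the compared groups alone, each time miR-145a-3p, and 1 with the series term (Novel_z_8). Leaving out a sham library gave 0 to 1, with 1 without 7-day sham replicate 3. The interaction count was 0 under all alternatives run; it uses all 4 groups, so it had no fit to the compared groups alone. No paired analysis was possible because the labels give mouse numbers and no replicate numbers that groups share. Within the mouse-number series 28, a limma fit of 1 library against 3 called 2 (both lower) and had 112 at an unadjusted p under 0.05. The lone 14-day library has no replicate there, so these calls are not used and only values are given.

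The 899 recomputed log2 fold changes include those of the sham contrast and of the interaction, for 5 miRNAs each. Of the 899, 33 lay on the other side of 0, and the cause was not tested. All 33 belong to the Ang II contrast, so their share of that contrast alone is larger than 33 of 899. With library totals these were miR-126-3p (0.16), miR-145a-3p (0.16) and miR-486-5p/miR-3107-5p (0.12). With limma-voom they were miR-132-3p (-0.0162) and miR-21a-5p (-0.0851). With the series term they were miR-132-3p (-0.13), miR-451a (-0.13), miR-486-5p (0.0225), miR-375-3p (0.0665), miR-216a-5p (0.22) and miR-183-5p (0.23). With the class term they were miR-132-3p (-0.10), miR-183-5p (0.0724) and miR-486-5p (0.26). Within class A they were miR-301a-3p (-0.0285), miR-431-5p (-0.0215), miR-132-3p (-0.0225), miR-214-3p (-0.0907), miR-21a-5p (-0.13), miR-192-5p (0.0699), miR-143-3p (0.0525), miR-182-5p (0.0826), miR-486-5p (0.16) and miR-183-5p (0.22). Within class B they were miR-145a-5p (-0.0639), miR-132-3p (-0.0653), miR-193a-3p (-0.13) and miR-486-5p (0.31). Within series 28 they were miR-382-3p (-0.11), miR-21a-5p (-0.22), miR-802-3p (0.19), miR-126-3p (0.31) and miR-429-3p (0.53). Leaving out a library gave -0.10 to 0.14 for miR-21a-5p, -0.064 to 0.0857 for miR-132-3p, -0.16 to 0.0137 for miR-145a-3p and -0.27 to 0.0794 for miR-486-5p. Depth limits rare miRNAs: miR-29a-5p rests on a median of 37.5 reads per 14-day and 20 per 7-day Ang II library.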

Other observations

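The 5 miRNAs with the smallest p for the interaction, none of which passed the test (limma adjusted p = 0.804 each), were miR-382-5p (0.68 on the log2 scale), miR-409-5p (0.96), miR-29a-5p (0.48), miR-145a-3p (0.49) and Novel_x_29 (1.10). miR-409-5p, another Dlk1-Dio3 member, averaged 1.99 ± 1.37 RPM in 14-day and 1.24 ± 0.493 RPM in 7-day Ang II arteries, against 0.831 ± 0.429 RPM in 14-day and 1.97 ± 1.35 RPM in 7-day sham arteries (SD, n = 8 each). Between the sham groups the smallest p after miR-145a-3p belonged to miR-1247-3p (log2 fold change 0.55, 14-day over 7-day sham), miR-129-2-3p (-0.59), miR-501-3p (-0.45) and miR-409-5p (-0.63), none of which passed the test.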
